A study of Mus musculus with 9 samples.

Results

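The Hedgehog pathway genes described here are the ligand Shh, the receptor Ptch1, the signal transducer Smo, the transcription factors Gli1, Gli2 and Gli3, the ligand-binding inhibitor Hhip and the intracellular inhibitor Sufu. They were chosen by gene name, and all 8 were found among the 54532 genes of the deposited count table. The cells were adipose-derived stem cells (ASCs) of C57BL/6 mice, isolated from subcutaneous (Sub-ASCs), abdominal (Ab-ASCs) or perivascular (PVASCs) fat. They were expanded in culture in a medium with serum, leukemia inhibitory factor and FGF; the labels list no treatment, and passage was given only as a range. Each group had 3 bulk RNA-seq libraries, 9 in all, with 20524173 to 29881036 counted reads per library. The labels give no age or sex, and no source used here says whether libraries of a group came from separate animals, so p-values measure only the spread between these libraries.

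In the absence of ligand, Ptch1 keeps Smo inactive and the Gli proteins, mainly Gli3, are processed to repressors with the help of Sufu. A Hedgehog ligand such as Shh binds Ptch1, which frees Smo to act at the primary cilium and turns Gli2 and Gli3 into activators. Gli1, Ptch1 and Hhip are direct targets of this pathway in many tissues, and the level of Gli1 is a common readout of its activity. Ptch1 and Hhip bind the ligand, so that the response limits itself. In fat, Hedgehog signaling is known to restrain adipogenesis, and Gli1 marks stromal cells around blood vessels. The comparison of the ASCs therefore asks whether the target genes had the same order of levels as Shh.

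Shh was detected in PVASCs alone, and its targets differed from each other in how they were ordered among the ASCs. Hhip and Ptch1 had their highest level in PVASCs. Gli1 was nearly absent in Sub-ASCs, and its mean in Ab-ASCs, where no Shh read was counted, lay above that in PVASCs without passing the test. Among the 8 genes, Shh, Hhip and Ptch1 exceeded both Sub-ASCs and Ab-ASCs in PVASCs, against 10.2% of all 16526 tested genes.

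**Figure D1:**
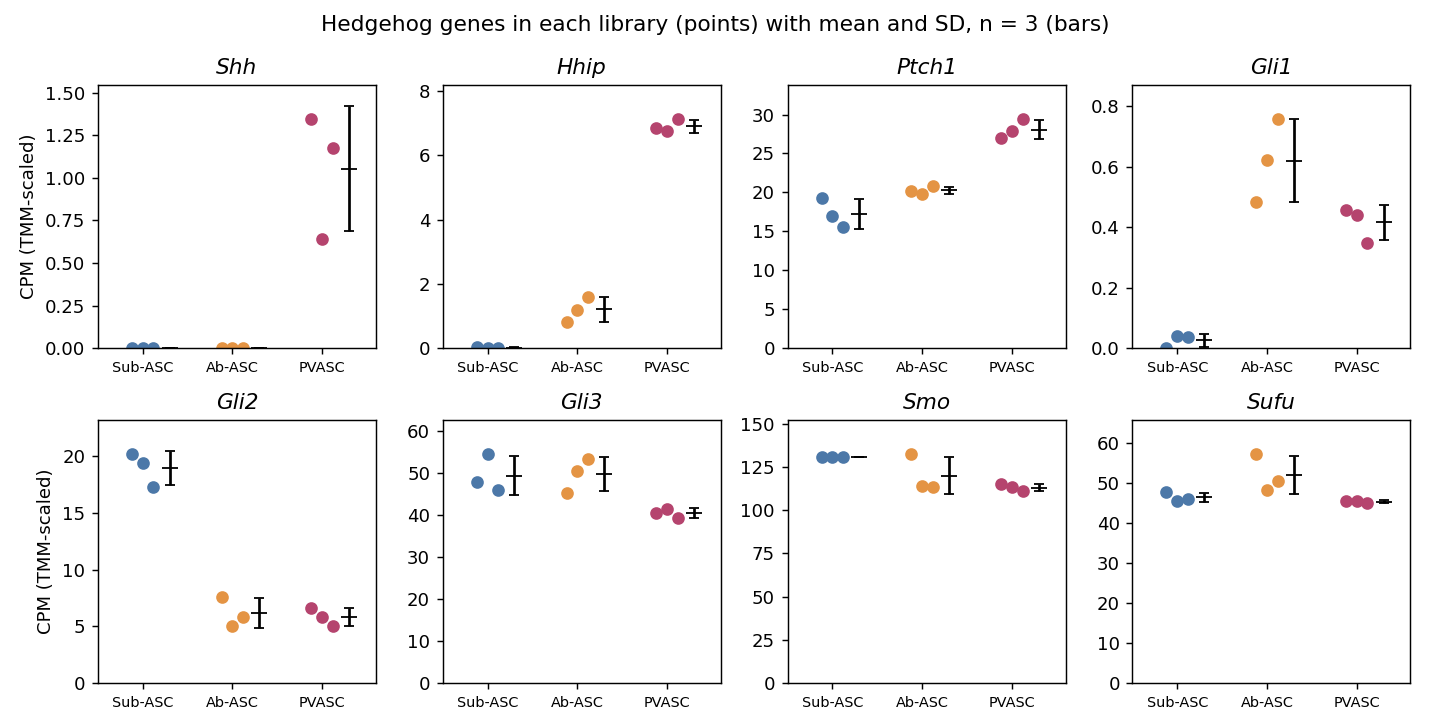
CPM (read counts scaled by library size with TMM factors, linear axis from 0) of the 8 Hedgehog genes in each library, with the mean and SD of 3 libraries beside the points. Shh lies at 0 in all 6 Sub-ASC and Ab-ASC libraries, Hhip and Ptch1 are highest in PVASCs, the mean of Gli1 is highest in Ab-ASCs and Gli2 is highest in Sub-ASCs.

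The promoter windows of the target genes with the highest level in PVASCs, Hhip and Ptch1, are shown because the ordering by group turned on these genes. Each window runs from 250 bases before to 50 bases after the start site listed by RefSeq for GRCm38.p6, on the minus strand. For Hhip it is chr8:80057959-80058258, and for Ptch1 it is chr13:63565686-63565985, a start that lies inside the gene as listed in the table. Of the 8 genes, 6 had a RefSeq window (Gli2, Gli3, Hhip, Ptch1, Smo and Sufu). The Gli-binding motif GACCACCCA, searched on both strands (TGGGTGGTC on the other), was found in 0 of these 6 windows and in 0.253% of all 32851 windows of this length. The windows are printed in lower case throughout, since capitals would have marked the motif.
Hhip: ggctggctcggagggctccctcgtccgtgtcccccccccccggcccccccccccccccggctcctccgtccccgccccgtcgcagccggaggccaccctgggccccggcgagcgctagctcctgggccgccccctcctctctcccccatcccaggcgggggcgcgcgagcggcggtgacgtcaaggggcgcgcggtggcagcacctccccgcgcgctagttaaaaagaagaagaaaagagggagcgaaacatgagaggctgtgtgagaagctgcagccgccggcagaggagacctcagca
Ptch1: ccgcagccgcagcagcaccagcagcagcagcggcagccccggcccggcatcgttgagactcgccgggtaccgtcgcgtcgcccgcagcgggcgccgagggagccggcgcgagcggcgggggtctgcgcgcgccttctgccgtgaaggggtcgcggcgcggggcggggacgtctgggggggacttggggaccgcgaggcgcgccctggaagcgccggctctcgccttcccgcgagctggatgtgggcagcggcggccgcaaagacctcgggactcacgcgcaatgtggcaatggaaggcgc
Both windows were rich in G and C, at 73.7% for Hhip and 76.3% for Ptch1. That the motif was not matched says only that these letters are not in these windows.

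Shh (ENSMUSG00000002633) encodes the secreted ligand and occupies chromosome 5, 28456815 to 28467256, minus strand (GRCm38, as for all genes here). In PVASC replicates 1, 2 and 3 it had 44, 19 and 37 reads, or 1.34, 0.643 and 1.18 CPM (counts scaled by library size, with TMM factors). No read was counted in any of the 3 Ab-ASC or 3 Sub-ASC libraries. PVASC replicate 2 had the lowest value of the group, and even this library lay above the level of 3 reads, which was 0.0916 to 0.161 CPM among the 9 libraries and was taken as the smallest measurable count. Set against 3 reads in each library of the other group, the mean of 1.05 ± 0.366 CPM (SD, n = 3) in PVASCs exceeded that of Sub-ASCs by a factor of at least 8.77. Against Ab-ASCs the factor was at least 7.39. The difference passed the edgeR quasi-likelihood F-test against Sub-ASCs (adjusted p = 0.000105) and against Ab-ASCs (adjusted p = 0.000284), with Benjamini-Hochberg adjustment over all tested genes. Of the exon bases of Shh, 15.7% are shared with an antisense gene and 12.7% with a lincRNA on the opposite strand, which had at most 1 read in any library. In bulk libraries, fewer cells that express a gene and less RNA per cell cannot be told apart. Per length, the Shh level was low, at 0.405 ± 0.142 FPKM (SD, n = 3) in PVASCs, where FPKM scales reads by gene length and library total.

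Hhip (ENSMUSG00000064325) encodes a membrane protein that binds Hedgehog ligands and withholds them from Ptch1 (chromosome 8, 79965851 to 80058006, minus strand). Its reads numbered 224, 199 and 224 in PVASCs, 15, 27 and 36 in Ab-ASCs and 1, 0 and 0 in Sub-ASCs. As CPM these were 6.84, 6.74 and 7.12 in PVASCs and 0.805, 1.20 and 1.60 in Ab-ASCs. The PVASC libraries were close together and the Ab-ASC libraries spread over a wider range, and no library of a group reached the range of another. Between PVASCs and Ab-ASCs the log2 fold change was 2.49 (standard error 0.20, adjusted p = 6.76e-07), a 5.63-fold higher level in PVASCs. With a single read over the 3 Sub-ASC libraries, the ratio of PVASCs to Sub-ASCs was 518 with an exact 95% counting interval of 92.6 to 20484, and that of Ab-ASCs to Sub-ASCs was 92.0 with an interval of 16.0 to 3681. These intervals cover counting error only. Both differences from Sub-ASCs passed the test (adjusted p = 1.29e-09 for PVASCs and 1.71e-06 for Ab-ASCs, edgeR). Hhip thus had reads in all Ab-ASC libraries, which had no read of Shh.

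Ptch1 (ENSMUSG00000021466), the receptor and a target, occupies chromosome 13, 63508328 to 63573598, minus strand. It had 26.9, 27.8 and 29.4 CPM in PVASCs, 20.1, 19.9 and 20.8 CPM in Ab-ASCs and 19.3, 17.0 and 15.5 CPM in Sub-ASCs. The groups did not overlap, and every library had at least 375 reads, unlike Hhip and Gli1. Per length Ptch1 was at 2.16, 1.33 and 1.19 FPKM in PVASCs, Ab-ASCs and Sub-ASCs, and Hhip was at 0.831 FPKM in PVASCs. The level in PVASCs was 1.63-fold that in Sub-ASCs (log2 fold change 0.70, standard error 0.08, adjusted p = 8.11e-06). It was 1.39-fold that in Ab-ASCs (log2 fold change 0.47, standard error 0.08, adjusted p = 0.000462, edgeR). Both calls held under every alternative except a required log2 fold change of 1. The smaller difference of Ab-ASCs over Sub-ASCs (log2 fold change 0.23, standard error 0.09, adjusted p = 0.028) did not, and its call was lost without Sub-ASC replicate 2 (0.23), Sub-ASC replicate 3 (0.16) or Ab-ASC replicate 3 (0.22), among other settings. The order PVASCs, Ab-ASCs, Sub-ASCs was thus clear only at its upper end.

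Gli1 (ENSMUSG00000025407) encodes the activator whose transcription depends on the pathway (chromosome 10, 127329882 to 127341974, minus strand). There were 15, 13 and 11 reads in PVASCs, 9, 14 and 17 reads in Ab-ASCs and 0, 1 and 1 reads in Sub-ASCs. In CPM, PVASC libraries had 0.458, 0.440 and 0.350 and Ab-ASC libraries 0.483, 0.622 and 0.757. All PVASC libraries lay below all Ab-ASC libraries, by a small margin at the nearest pair, and 63.9% of all tested genes likewise had no overlap between these groups. The log2 fold change of PVASCs against Ab-ASCs was -0.58 with a 95% interval of -1.32 to 0.15 (adjusted p = 0.156, edgeR), so a difference was not detectable at this depth, and a level in PVASCs more than 1.11-fold that in Ab-ASCs lay outside the interval. From 2 reads in Sub-ASCs, the ratio was 15.6 for PVASCs (exact 95% counting interval 4.04 to 133) and 23.6 for Ab-ASCs (6.12 to 202). Gli1 was higher than in Sub-ASCs in both (adjusted p = 0.000126 for PVASCs and 2.34e-05 for Ab-ASCs, edgeR). Gli1 shares 1.24% of its exon bases with Arhgap9 on the opposite strand, which had 18 to 55 reads per library, and since the strand setting of the counting is not given in the sources used here, reads in that overlap cannot be assigned to a strand. Gli1 also shares 5.31% of its exon bases with the antisense gene Gm47200, which had no read in any library.

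**Figure D2:**
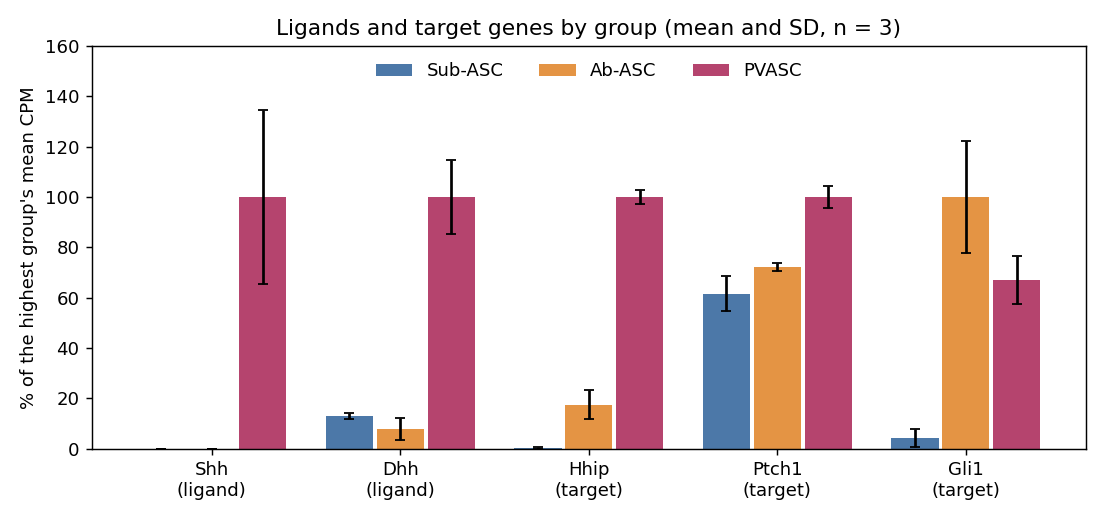
Mean CPM of ligand and target genes in each group as a percentage of the gene's highest group mean, with the SD of 3 libraries as error bars. PVASCs hold the highest mean of Shh, Dhh, Hhip and Ptch1, whereas Ab-ASCs hold that of Gli1 (PVASCs at 67.0%).

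The other Hedgehog ligands were examined because a target can respond to any of them. Dhh, known from Schwann cells, Sertoli cells and endothelium, had 110 to 136 reads per PVASC library, 3 to 11 per Ab-ASC library and 11 to 15 per Sub-ASC library. Its level of 4.04 ± 0.591 CPM (SD, n = 3) in PVASCs was 7.70-fold that in Sub-ASCs (adjusted p = 4.66e-07) and 12.6-fold that in Ab-ASCs (adjusted p = 7.02e-07, edgeR). Per length, Dhh in PVASCs was at 1.00 ± 0.145 FPKM, above Shh at 0.405 ± 0.142 FPKM (SD, n = 3 each). Ihh had 0 to 5 reads per library and was not tested. The ligand order PVASCs over the rest was thus shared by Shh and Dhh, and Dhh had reads in all 9 libraries.

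Endothelial markers had the same order as the ligands at its upper end, and Schwann and epithelial lists did not. Summed over the endothelial list of 8 genes, PVASC libraries had 800 to 812 CPM, Ab-ASC libraries 91.4 to 93.9 and Sub-ASC libraries 190 to 205. Of these genes, 7 were higher than in Sub-ASCs, against 34.7% of all tested genes, and all 8 higher than in Ab-ASCs, against 24.7%. Tek was lower than in Sub-ASCs, at 14.8 CPM in PVASCs and 46.0 CPM in Sub-ASCs. Pecam1 was at 179 CPM in PVASCs and 45.2 CPM in Sub-ASCs. The 6 Schwann and neural genes summed to 175 to 181 CPM in PVASCs, 43.0 to 51.8 in Ab-ASCs and 233 to 244 in Sub-ASCs, where Ngfr alone had 210 CPM. Their defining member Sox10 had 11.9 CPM in PVASCs, 0.252 CPM in Ab-ASCs and 0.638 CPM in Sub-ASCs. Of the 5 genes of this list that could be tested, 4 were higher in PVASCs than in Ab-ASCs, and 2 were higher and 2 lower than in Sub-ASCs, where 35.7% of all genes were lower. The 7 epithelial genes, markers of a common source of Shh, summed to 0.826 to 1.01 CPM in PVASCs and 0.746 to 1.03 CPM in Sub-ASCs, with no read of Krt5 in either, and to 9.58 to 12.6 CPM in Ab-ASCs. The study's methods describe staining of PVASCs for CD31, the product of Pecam1, for analysis by flow cytometry and name no sort on it. The part of endothelial or Schwann cells in the levels of Shh and Dhh was not tested. The labelled cell type was checked on stromal markers, and Pdgfra, Pdgfrb, Thy1 and Eng each had a mean above 100 CPM in every group. Others of the 11 stromal genes were far lower outside Sub-ASCs, with Dcn at 112 CPM in PVASCs, 362 CPM in Ab-ASCs and 8850 CPM in Sub-ASCs and Lum at 3.11, 37.4 and 345 CPM. Of the 11, 4 were higher and 7 lower in PVASCs than in Sub-ASCs, and likewise than in Ab-ASCs, where 32.1% of all genes were lower. Ly6a (Sca1) had 111 CPM in PVASCs, 21.8 CPM in Ab-ASCs and 2047 CPM in Sub-ASCs.

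Several genes for the release of the ligands from the producing cell were higher in PVASCs and Ab-ASCs. Hhat, which attaches the palmitate of Hedgehog ligands, was 2.48-fold higher in PVASCs and 2.30-fold higher in Ab-ASCs than in Sub-ASCs. Disp1, the transporter that releases the lipid-modified ligand, was at 60.8 ± 0.844 CPM in PVASCs, 73.0 ± 4.40 CPM in Ab-ASCs and 22.3 ± 0.796 CPM in Sub-ASCs (SD, n = 3 each), and its relative Disp2 was at 2.50, 3.98 and 1.20 CPM in the same order. All these differences from Sub-ASCs passed the test (adjusted p at most 9.99e-05, edgeR). Scube3, a secreted protein of a family that takes up the released ligand, was highest in PVASCs, with log2 fold changes of 1.79 over Sub-ASCs (adjusted p = 3.52e-07) and 1.63 over Ab-ASCs (adjusted p = 2.95e-06, edgeR). Scube1 was highest in Sub-ASCs at 0.666 CPM and had 0 to 2 reads per PVASC library. Scube2 had 0 to 7 reads per library and was not tested.

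Among the co-receptors that present the ligand to Ptch1, Boc and Cdon were lowest in PVASCs and Gas1 was highest in Sub-ASCs. Boc was at 18.7 ± 0.492 CPM in PVASCs, 54.7 ± 0.778 CPM in Ab-ASCs and 51.1 ± 0.678 CPM in Sub-ASCs (SD, n = 3 each). This was 2.92-fold lower than in Ab-ASCs and 2.73-fold lower than in Sub-ASCs. Cdon was at 39.5 ± 1.27, 69.4 ± 1.11 and 96.8 ± 1.34 CPM in the same order of groups. Gas1, the third of these co-receptors, was at 39.0 ± 0.820 and 31.0 ± 0.470 CPM in PVASCs and Ab-ASCs and at 407 ± 6.74 CPM in Sub-ASCs, and was 10.4-fold lower in PVASCs than in Sub-ASCs. All differences between PVASCs and the other groups in these genes passed the test (adjusted p at most 0.000137, edgeR). Boc, Cdon and Gas1 are known to be repressed by Hedgehog signaling in several embryonic tissues. Of Gas1, the level in PVASCs was higher than in Ab-ASCs (log2 fold change 0.33), so it did not share the direction of Boc and Cdon there. Gpc3, a glypican that competes for the ligand, was lower in PVASCs (log2 fold change -0.91) and Ab-ASCs (-0.74) than in Sub-ASCs. Lrp2, an endocytic receptor for Shh, had 2.02, 3.89 and 0.148 CPM in PVASCs, Ab-ASCs and Sub-ASCs. Of these 5 genes, 4 were lower in PVASCs than in Sub-ASCs, where 35.7% of all tested genes were lower. Against Ab-ASCs 3 were lower, where the share of all tested genes was 32.1%.

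Of the transcription factors, Gli2 was set apart in Sub-ASCs and Gli3 varied little. Gli2 (ENSMUSG00000048402, chromosome 1, 118834132 to 119053619, minus strand) is the main activator in the response to ligand. It had 20.2, 19.4 and 17.3 CPM in Sub-ASCs, 7.62, 5.02 and 5.84 CPM in Ab-ASCs and 6.60, 5.79 and 4.99 CPM in PVASCs. The Sub-ASC libraries lay above all others, and the remaining groups overlapped. Against Sub-ASCs the log2 fold change was -1.71 in PVASCs (standard error 0.14, adjusted p = 2.37e-07) and -1.63 in Ab-ASCs (standard error 0.15, adjusted p = 5.01e-07, edgeR). PVASCs and Ab-ASCs differed by -0.08 on the log2 scale, with a 95% interval of -0.42 to 0.27, and the value was 0.15 with library totals in place of TMM, so it has no settled sign. Sub-ASCs thus combined the highest Gli2 with the lowest Gli1.

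Gli3 (ENSMUSG00000021318, chromosome 13, 15463235 to 15730026, plus strand), the main repressor in the absence of ligand, had 40.5, 41.5 and 39.2 CPM in PVASCs, 45.3, 50.3 and 53.4 CPM in Ab-ASCs and 47.7, 54.5 and 45.8 CPM in Sub-ASCs. PVASC libraries were the lowest, and the other groups overlapped. Relative to Sub-ASCs it was lower by 0.29 on the log2 scale (log2 fold change -0.29, adjusted p = 0.00592), and relative to Ab-ASCs by a similar amount (-0.30, adjusted p = 0.00696, edgeR). Both calls were kept in 15 of 16 alternatives without a fold cutoff and lost with library totals alone, at -0.13 (adjusted p = 0.187) and -0.08 (adjusted p = 0.485). Relative to the median of all genes, which that scaling also moves, Gli3 was at -0.28 against Sub-ASCs and -0.24 against Ab-ASCs under TMM and under library totals. Per length, Gli3 made up 62.9% to 66.7% of the summed FPKM of the Gli genes in Sub-ASCs, 79.7% to 86.0% in Ab-ASCs and 80.1% to 83.7% in PVASCs. Gli1 made up at most 2.31% in any library, so the transcripts of the family were mostly those of Gli3 in all groups.

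Smo (ENSMUSG00000001761, chromosome 6, 29735503 to 29761365, plus strand) and Sufu (ENSMUSG00000025231, chromosome 19, 46396896 to 46488804, plus strand) were at similar levels in all ASCs. Smo, the transducer that every Hedgehog response requires, was the most abundant of the 8 genes per length, at 22.8 ± 0.0553 FPKM in Sub-ASCs, 19.9 ± 1.30 FPKM in Ab-ASCs and 22.0 ± 0.410 FPKM in PVASCs (SD, n = 3 each). Its level in PVASCs was lower than in Sub-ASCs after TMM scaling (log2 fold change -0.21, standard error 0.06, adjusted p = 0.0104), but with library totals alone this was -0.05 (adjusted p = 0.414) and without PVASC replicate 3 the call was also lost (-0.18, adjusted p = 0.0563). Sufu was at 45.5, 45.6 and 45.1 CPM in PVASCs, 57.3, 48.2 and 50.5 CPM in Ab-ASCs and 47.8, 45.6 and 46.1 CPM in Sub-ASCs. In TMM-scaled CPM, Ab-ASC replicate 1 was the highest library of both Sufu and Smo. The difference of PVASCs from Ab-ASCs (log2 fold change -0.19, adjusted p = 0.0271) was lost without that library (-0.12, adjusted p = 0.0682), and also without any single PVASC library. With library totals alone it turned to 0.03 (adjusted p = 0.656). For Smo the log2 fold change of PVASCs against Ab-ASCs was -0.08 (adjusted p = 0.27) and turned to 0.14 (adjusted p = 0.0382, edgeR) with library totals. Sufu in Ab-ASCs against Sub-ASCs was just past the threshold (log2 fold change 0.16, adjusted p = 0.0479), and this call was lost under most alternatives, among them leaving out any PVASC or Sub-ASC library, Ab-ASC replicate 1 or Ab-ASC replicate 3. The choice between TMM and library totals shifted the median of all tested genes by 0.22 between PVASCs and Ab-ASCs and by 0.16 between PVASCs and Sub-ASCs. Relative to that median, Smo differed between PVASCs and Ab-ASCs by -0.03 with TMM and -0.02 with library totals, and Sufu by -0.14 and -0.13. Between PVASCs and Sub-ASCs, Smo was at -0.20 relative to the median under both scalings.

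**Figure D3:**
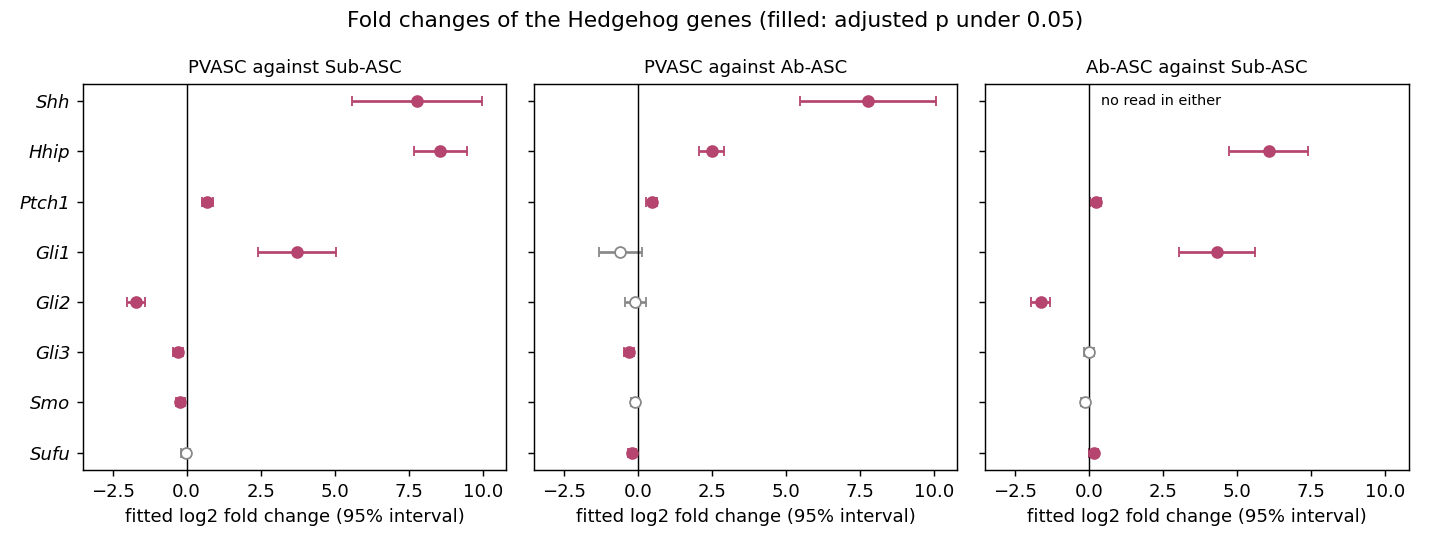
Fitted log2 fold changes of the 8 genes with 95% intervals in the 3 comparisons (edgeR), filled where the adjusted p is under 0.05. Against Sub-ASCs, Hhip and Gli1 are far to the right in PVASCs and Ab-ASCs, whereas between PVASCs and Ab-ASCs Gli1 spans 0; values of Shh, and of Hhip and Gli1 against Sub-ASCs, rest on groups with 0 to 2 reads in all and are not bounds.

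In all, 7 of the 8 genes passed the test between PVASCs and Sub-ASCs, 4 higher and 3 lower in PVASCs, against 70.4% of all tested genes in either direction. Between PVASCs and Ab-ASCs 5 passed, 3 higher and 2 lower, against 56.9% of all genes. Between Ab-ASCs and Sub-ASCs 5 passed, 4 higher and 1 lower, against 75.3% of all genes. Over the 3 groups together all 8 differed, against 84.6% of all genes. The counts were near the background, so the number of calls does not set the pathway apart. Among all tested genes, 24.7% were higher and 32.1% lower in PVASCs than in Ab-ASCs, so that 43.5% of the called genes were higher, but 70.1% were higher with library totals in place of TMM. With a log2 fold change of at least 1 required as well, Shh, Hhip and Gli1 remained as higher and Gli2 as lower for PVASCs over Sub-ASCs, against 32.2% of all genes (15.7% higher, 16.6% lower). Between PVASCs and Ab-ASCs this left Shh and Hhip, both higher, against 15.4% (10.1% higher, 5.31% lower). Between Ab-ASCs and Sub-ASCs it left Hhip and Gli1 as higher and Gli2 as lower, against 37.8% (16.4% higher, 21.3% lower). Of all genes called between PVASCs and Ab-ASCs at this fold, 65.6% were higher.

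A wider list of 17 genes reported as Hedgehog targets in mesenchyme or other tissues was then compared. In PVASCs 15 of them were higher and 2 lower (1 lower with library totals alone) than in Sub-ASCs, with a median log2 fold change of 1.99, where 34.7% of all tested genes were higher and their median was -0.01. In Ab-ASCs, where Shh was not detected, 12 were higher and 2 lower than in Sub-ASCs, with a median of 1.23, against 37.0% of all genes higher. Between PVASCs and Ab-ASCs 12 were higher and 3 lower in PVASCs, against 24.7% and 32.1% of all genes, with a median of 0.62, where the median of all genes was -0.06. Many of these genes have other known inputs, and the list was chosen with earlier results of these data known.

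The forkhead genes of this list, which act in the mesenchyme of lung, gut and vessels, had large differences from Sub-ASCs, except Foxf1 in Ab-ASCs. Foxc2 was at 54.4 ± 2.74 CPM in PVASCs, 37.2 ± 1.10 CPM in Ab-ASCs and 0.770 ± 0.184 CPM in Sub-ASCs, and Foxs1 was at 28.0 ± 1.68, 66.2 ± 3.95 and 0.780 ± 0.167 CPM (SD, n = 3 each). Foxl1 had 128 to 139 reads per PVASC library, 25 to 34 per Ab-ASC library and 6 in all in Sub-ASCs, all of them in replicate 3. Its log2 fold change of PVASCs over Ab-ASCs was 1.56, and that over Sub-ASCs ranged from 5.08 to 9.77 among the alternatives, the upper value being without Sub-ASC replicate 3, where no Sub-ASC read is left and the fitted value is no bound. Foxf1, a target in visceral mesenchyme, was higher by 1.52 than in Sub-ASCs and by 1.20 than in Ab-ASCs. Foxf2 was at 19.0 ± 1.03, 15.0 ± 0.726 and 4.78 ± 0.318 CPM in PVASCs, Ab-ASCs and Sub-ASCs (SD, n = 3 each), and its calls in all pairs held in 16 of 16 alternatives without a fold cutoff. Foxc2, Foxl1 and Foxf2 had the order of Ptch1. For Foxf1 the step from Sub-ASCs to Ab-ASCs (log2 fold change 0.32, adjusted p = 0.0386, edgeR) kept its call in 5 of 16 alternatives and was lost without any single Sub-ASC library, Ab-ASC replicate 2 or Ab-ASC replicate 3. Foxs1 was highest in Ab-ASCs, as was the mean of Gli1, whose difference from PVASCs did not pass the test.

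Bmp4, a growth factor that lies downstream of Shh in gut mesenchyme, had 49.6 ± 2.80 CPM in PVASCs, 1.49 ± 0.152 CPM in Ab-ASCs and 6.06 ± 0.817 CPM in Sub-ASCs (SD, n = 3 each). It was 33.2-fold higher in PVASCs than in Ab-ASCs (adjusted p = 2.34e-11) and 8.19-fold higher than in Sub-ASCs (adjusted p = 3.06e-11, edgeR). Nkx3-2 and Pax9, which respond to Shh in the sclerotome, were scarce, at 0.564 and 0.817 CPM in PVASCs, and were higher there than in Ab-ASCs (adjusted p = 0.00312 and 0.00208, edgeR). The Ab-ASC libraries had 1 to 2 reads of Nkx3-2 and 0 to 5 of Pax9, near or under the 3-read level, so no fold is given. The call of Pax9 against Sub-ASCs (log2 fold change 1.35) was lost without Sub-ASC replicate 1 or PVASC replicate 3. Like Shh, these genes had their highest level in PVASCs, and like Dhh they had reads in the other groups.

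Targets tied to growth were higher in PVASCs and Ab-ASCs than in Sub-ASCs. Mycn was at 3.36, 7.13 and 0.123 CPM and Ccnd1 at 524, 189 and 32.0 CPM in PVASCs, Ab-ASCs and Sub-ASCs. Ccnd1 was highest in PVASCs, and Mycn, like Gli1, had its highest mean in Ab-ASCs. For Gli1 the difference between Ab-ASCs and PVASCs did not pass the test. The 12 genes of the proliferation list had the order of the Mycn and Gli1 means, with summed levels of 989 to 1005 CPM in PVASCs, 1071 to 1134 in Ab-ASCs and 151 to 157 in Sub-ASCs. All 12 were higher in PVASCs than in Sub-ASCs (34.7% of all tested genes) and in Ab-ASCs than in Sub-ASCs (37.0%). Between PVASCs and Ab-ASCs 9 were lower (32.1% of all genes) and 2 higher (24.7%) in PVASCs. The part of proliferation in the levels of Gli1, Mycn or Ccnd1 was not tested. Summed, the smooth muscle list of 7 genes also had the order of the Gli1 means, at 2813 to 2958 CPM in PVASCs, 4649 to 5741 in Ab-ASCs and 92.8 to 97.9 in Sub-ASCs. The sum of the 9 mesothelial genes had this order too, at 49.8 to 51.5 CPM in PVASCs, 122 to 132 in Ab-ASCs and 3.12 to 3.26 in Sub-ASCs. Of these genes, 8 were higher in either group than in Sub-ASCs, and 7 lower and 2 higher in PVASCs than in Ab-ASCs, beside the same shares of all genes. The 2 were Krt19, at 14.7 CPM in PVASCs and 4.39 CPM in Ab-ASCs, and Gpm6a, at 1.88 and 0.600 CPM. The part of either cell type was not tested.

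**Figure D4:**
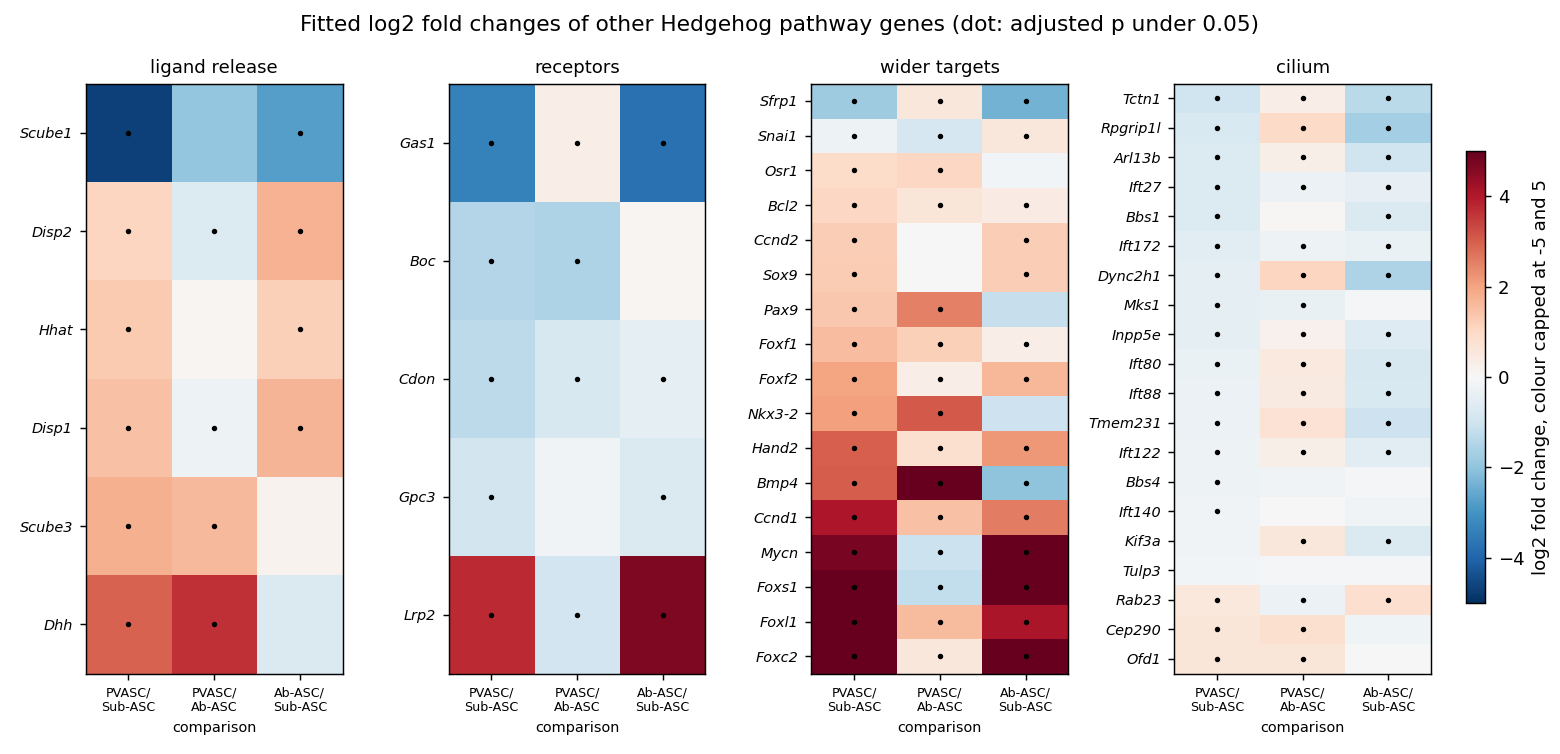
Fitted log2 fold changes of the other tested Hedgehog pathway genes, 1 row per gene and 1 column per comparison, with a dot where the adjusted p is under 0.05 (edgeR) and the color capped at -5 and 5. Most wider targets (15 of 17) are higher in PVASCs than in Sub-ASCs, Boc and Cdon are lower in PVASCs than in both other groups, and most cilium genes are lower in Ab-ASCs than in Sub-ASCs (13 of 20).

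Hedgehog signals pass through the primary cilium, so 20 genes of the cilium and of transport along it were compared. In Ab-ASCs 13 were lower and 1 higher than in Sub-ASCs, against 38.3% of all tested genes lower, with a median log2 fold change of -0.59. Rpgrip1l and Tctn1, of the transition zone at the base of the cilium, had log2 fold changes of -1.71 and -1.34, and Dync2h1, the motor of the return transport, had -1.54. The Ab-ASC libraries were spread more widely than those of other groups, with a biological coefficient of variation of 12.5% against 5.69% in Sub-ASCs and 3.85% in PVASCs. The lowest Ab-ASC library had 5.26 CPM of Dync2h1 and the highest 9.86 CPM, and for Rpgrip1l these were 5.63 and 9.51 CPM, all below every Sub-ASC library. Without Ab-ASC replicate 1 the count of lower genes was 15. In PVASCs 12 were higher and 4 lower than in Ab-ASCs, against 24.7% of all tested genes higher and 32.1% lower, with a median of 0.29, led by Dync2h1 at 1.09 and Rpgrip1l at 0.95. The lower count of 4 fell to 2 without Ab-ASC replicate 1, Ab-ASC replicate 3, PVASC replicate 1 or PVASC replicate 3, and to 0 with library totals alone. Against Sub-ASCs 15 were lower in PVASCs (35.7% of all tested genes), with a median of -0.31, but this count fell to 8 without Sub-ASC replicate 2, 9 without PVASC replicate 1, 8 without PVASC replicate 3 and 7 with library totals alone. The proliferation list ran opposite to these genes between Ab-ASCs and Sub-ASCs, and its part was not tested.

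Regulators of the Gli proteins in the cytoplasm moved in both directions. Of 18 such genes, 4 were higher and 7 lower in PVASCs than in Sub-ASCs, where 70.4% of all genes were called, and 5 were higher and 6 lower in Ab-ASCs, where 75.3% were called, with medians of -0.09 and -0.13. The largest difference was that of Stk36, a kinase related to fused of flies, with a log2 fold change of -1.07 in PVASCs against Sub-ASCs. Gpr161, a ciliary receptor that raises cAMP and restrains the pathway, was lower in PVASCs than in Ab-ASCs (log2 fold change -0.53, adjusted p = 0.000227), and Prkar1a, the regulatory subunit that holds protein kinase A inactive, exceeded its Sub-ASC level in PVASCs (0.55, adjusted p = 8.35e-07, edgeR). Grk2, a kinase that acts on Smo, lay between the others in PVASCs, above Sub-ASCs (0.55) and below Ab-ASCs (-0.44). Kif7, the ciliary kinesin that scaffolds Gli proteins, was lower in PVASCs (-0.52) and Ab-ASCs (-0.39) than in Sub-ASCs. Between PVASCs and Ab-ASCs 2 of the 18 were higher and 5 lower, against 24.7% and 32.1% of all genes, and these counts were 8 and 2 with library totals alone. Without PVASC replicate 1 they were 1 and 3, without PVASC replicate 2 they were 1 and 3, and without PVASC replicate 3 the lower count was 3.

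To describe each pattern, the profile of log2 CPM about the gene's own mean was compared with those of 13874 protein-coding genes tested. The measure was the root mean square difference over the 9 libraries. A prior count of 2 was added before taking logs, which sets the value where no read was counted. Nearest to Shh were Scel (0.327), Smoc1 (0.363), Ajap1 (0.366), Adgrg3 (0.371) and Mest (0.374). Nearest to Hhip were Slc6a5 (0.382), Cadm4 (0.384), Gata4 (0.395), Prkg2 (0.432) and Klk8 (0.446), and Gata4 had 11.8, 1.64 and 0.0143 CPM in PVASCs, Ab-ASCs and Sub-ASCs. Nearest to Ptch1 were Arl4c (0.0844), Prdm11 (0.0876), Ahsa2 (0.0969), Mtmr12 (0.103) and Gnao1 (0.104). Nearest to Gli1 were Mcm8 (0.163), Pkmyt1 (0.183), Frmd4a (0.196), Mad2l1 (0.198) and Kpna2 (0.207). Among the likest genes of Shh, Ptch1 ranked 1376, Hhip 1837 and Gli1 5220. These ranks describe profiles over 9 libraries of 3 groups and are no test. The profiles were centered but not scaled, so ranks depend on the size of the differences as well as on their order. With no read of Shh in Sub-ASCs and Ab-ASCs, the size of its differences rests on the prior count.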

How the data were processed

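Bulk mRNA of 3 Sub-ASC, 3 Ab-ASC and 3 PVASC libraries was analysed. The authors deposited raw counts per gene with gene lengths and positions. The submitters' processing notes list CASAVA 1.8, Bowtie 0.12.2, featureCounts 1.5.0-p3 and the builds mm8 and mm10, without roles; the strand setting is not given in the sources used here. Of the listed positions, 98.1% equal those of GENCODE M21 on GRCm38. Groups came from the sample titles.

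Genes passing filterByExpr (16526) were tested in R 4.3.3 with edgeR 4.0.16: TMM scaling, 1 fit of all 9 libraries without covariates, quasi-likelihood F-test, Benjamini-Hochberg adjustment, threshold 0.05. The procedure was tested on simulated data. CPM is TMM-scaled, and FPKM was calculated from counts, length and library total. Standard errors are the log2 fold change over the root of F. Intervals cover counting error where stated, and fold bounds use 3 reads per library.

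The members and gene lists were chosen with earlier results of these data known. Named were the 8 members, all genes of the ligand and receptor lists, up to 4 called genes with the largest change per other list and comparison, and the 5 likest genes of Shh, Ptch1, Gli1 and Hhip. A few listed genes are not reported here and were left out of the list counts. Foxf1, Foxf2, Ccnd1 and Kif7, and the markers, were named outside this rule after their values were seen. Alternatives were DESeq2 1.42.0, RLE, other filters, single pairs of groups, a replicate block, a fold cutoff and leaving out each library, with library totals added after seeing the data.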

Additional observations from a re-analysis of the deposited data

How the results depend on the processing

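Apart from a required fold change, Shh, Hhip and Gli1 kept their direction and side of the threshold under every alternative that could test them, as did Ptch1 in PVASCs against either group and Gli2 against Sub-ASCs. With at least 10 reads in every library, Shh, Hhip and Gli1 could not be tested. Of the rest, in either direction, 4 members were called between PVASCs and Sub-ASCs and 2 between PVASCs and Ab-ASCs. In the pair without PVASCs 2 were called, and 4 among the 3 groups together, where 8 were called as reported. Where no share of all genes stands beside such counts, they show only how far the calls depend on processing. With a required log2 fold change of 1 in size, the members called in the same order of pairs were 4, 2 and 3, and all genes called 5328, 2551 and 6241. When only Ab-ASCs and Sub-ASCs were fitted, 3 were called. With library totals alone, a scaling chosen after seeing the data, the log2 fold changes of PVASCs against Ab-ASCs turned to 0.14 for Smo, 0.033 for Sufu and 0.15 for Gli2. Uncalled values also changed sign for Sufu in PVASCs against Sub-ASCs (-0.03 to 0.12) and Gli3 in Ab-ASCs against Sub-ASCs (0.01 to -0.06). Leaving out single libraries, the members called ranged from 6 to 7, 4 to 5, 3 to 5 and 6 to 8. The 3 came without Sub-ASC replicate 2, Sub-ASC replicate 3 or Ab-ASC replicate 3. With the replicate number as a block, 7, 5, 5 and 8 members were called, as without it. Deviations of same-numbered libraries correlated at -0.0514 to 0.0950, so no pairing was detectable, and whether same-numbered libraries share an animal is not given in the sources used here. Of the member fold changes recomputed, 325 kept their side of the threshold (sign changes of uncalled values included), 30 lost and 3 gained a call with the same sign, and 2 changed both sign and call. Few reads limit the precision of Shh, Gli1 and Hhip against Sub-ASCs. The cause of these changes was not tested, apart from the genes removed by the stricter filter.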
